A study of Arabidopsis thaliana with 26 samples.

Results

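The interactome of a single restriction fragment on chromosome 3, the AT3G44380 viewpoint, was described from 2 circular chromosome conformation capture (4C) libraries, replicates A and B, out of 26 libraries of 13 viewpoints in the series. The libraries were chosen by name, as those amplified from this viewpoint, and the other 24 libraries (12 viewpoints, none of them on chromosome 3) served as the comparison. All 26 were prepared from aerial tissue of 14-day-old Col-0 seedlings, the reference wild type of Arabidopsis, kept in 16 h light and 8 h dark, so that no genotype or treatment differed. The viewpoints differed in library preparation as well as in position. In 4C, crosslinked chromatin is cut with HindIII and religated, and the fragments joined to the viewpoint are amplified outward from it and sequenced, which gives the contacts of 1 locus with the whole genome, averaged over all cells of the tissue. AT3G44380 was in batch 2 of the methods, together with AT1G51860, SWN, hk4s and YAO. In batch 2 the sequencing adapters were ligated to the PCR products, whereas in batch 1 they were part of the primers, and the batches were sequenced in separate lanes. AT3G44380 was also 1 of 7 viewpoints taken here as made with NlaIII as the second enzyme. The methods name NlaIII and DpnII without assigning them to viewpoints, and the study lists these 7 under NlaIV.

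Arabidopsis chromosomes are organised around compact chromocentres, formed by the centromeres and the transposon-rich pericentromeric heterochromatin that carries H3K9me2 and H3K27me1. The gene-rich arms extend from them and hold active genes, marked by H3K4me3 and H3K36me3, and genes silenced by Polycomb group proteins, marked by H3K27me3. A viewpoint close to heterochromatin but outside it, as here, has the 2 kinds of chromatin on its 2 sides.

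The viewpoint fragment was Chr3:16034268-16036400 (TAIR10, 2133 bp), on the right arm of chromosome 3 (3R) at 2.44 Mb from the centromere, which is 0.247 of the arm's 9.87 Mb. It held the 3' part of AT3G44380, which encodes a late embryogenesis abundant (LEA) hydroxyproline-rich glycoprotein family member, and the 5' end of its neighbour AT3G44370, which encodes an OxaA/YidC membrane insertion protein, both on the minus strand. The primers define which ligation ends were read, and they are shown with the adjoining restriction sites in capitals, AAGCTT for HindIII and CATG for NlaIII.
Reading primer to the HindIII site, chr3:16036373-16036400, plus strand: ccttagccgctccttcaatagtAAGCTT
Second primer to the NlaIII site, chr3:16035859-16035885, minus strand: cacaaccacgaagtcaccaccacCATG
The reading primer lay in the coding sequence of AT3G44380, a gene with 1 exon, and the second primer lay between the 2 genes. Each primer matched chromosome 3 once. The CATG lay 3 bases beyond the second primer, whereas the nearest GGNNCC, the site of the enzyme NlaIV that the table of viewpoints names, lay 1623 bases away.

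Replicate A held 501056 reads at HindIII ends and replicate B held 1234180. Fragments nearer than 1 kb to the viewpoint or 100 kb to any centromere were not used. This left 363908 (72.6%) and 1113139 (90.2%) reads on 65061 fragments, against 273441 to 3560836 over all 26 libraries. The libraries differed most at the viewpoint itself. The 3 fragments left out there held 24.9% of the reads of A and 7.50% of those of B, with 10.4% and 1.22% on the viewpoint fragment and 11.5% and 2.86% on the next fragment towards the centromere. Values below are in RPM, kept reads scaled to the same total in every library, where 1 RPM stood for 0.364 reads in A and 1.11 reads in B. A fragment on another chromosome held 2.21 reads on average in A and 5.77 in B, so that levels outside the viewpoint arm were read over arms, intervals or windows of 100 fragments rather than single fragments. Reads were PCR products without molecular identifiers, and the error was taken from the replicates and from the other viewpoints.

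Most contacts of AT3G44380 stayed on its own arm. The viewpoint arm held 57.0% of the reads in A and 62.1% in B (mean 59.6% ± 3.59, SD, n = 2), the other arm of chromosome 3 (3L, the cis arm) held 10.97% and 10.63% (10.8% ± 0.246), and the 8 arms of the other chromosomes (trans) held 32.0% and 27.3% (29.6% ± 3.34). Per fragment, these were 112 and 122 RPM on 3R, 15.0 and 14.5 RPM on 3L, and 6.08 and 5.18 RPM in trans. A fragment on the viewpoint arm thus received 18.4 and 23.6 times the trans level, and one across the centromere 2.47 and 2.80 times. The replicates ordered these regions alike. Among the 13 viewpoints, the share on the viewpoint arm ranked 2nd (others 45.7% to 68.1%), the cis share 5th (1.64% to 15.0%) and the trans share 11th (22.2% to 50.1%). The log2 ratio of cis to trans per fragment was 1.30 in A and 1.49 in B and ranked 5th, behind the 4 other viewpoints of batch 2, in a range from -0.08 (CKI1, near the end of chromosome 2) to 1.80 (YAO, 1.21 Mb from the centromere of chromosome 4). A two-sided exact permutation test of 1 viewpoint against 12 gave p = 0.615 for it and cannot go below 0.0769. Of 35 such measures of AT3G44380 none reached its smallest possible p except the side ratio below, and the lowest p adjusted over the 35 was 1. Batch and position cannot be told apart in these orders, since the viewpoints of batch 2 were also those nearest to a centromere.

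**Figure D1:**
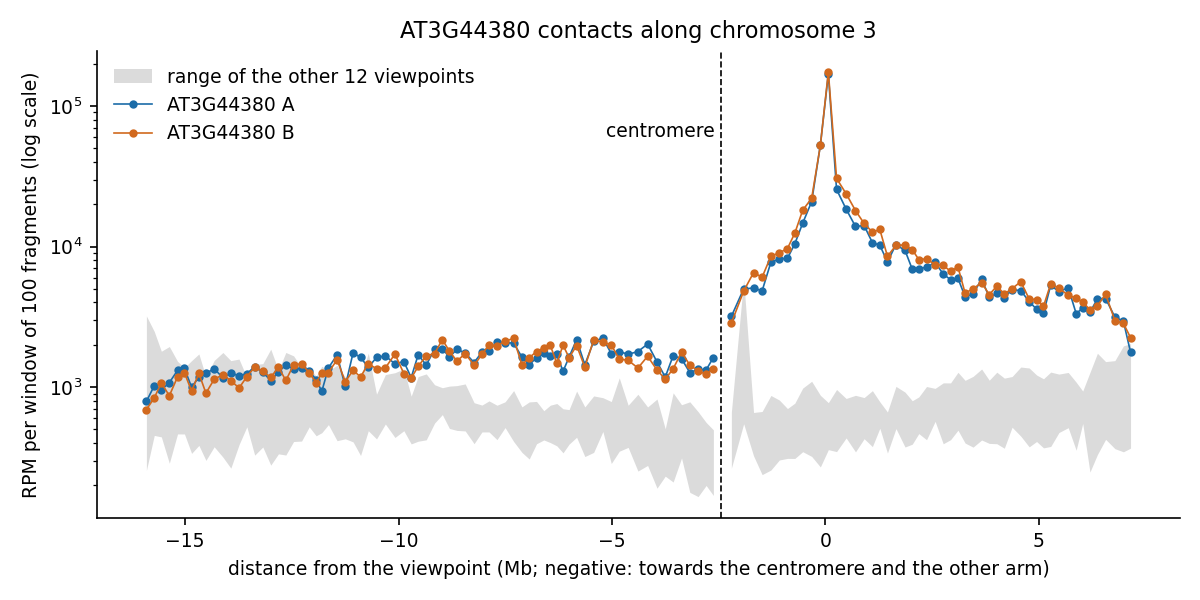
Reads of AT3G44380 along chromosome 3, as RPM per window of 100 fragments (log scale) against distance from the viewpoint in Mb, for replicates A (blue) and B (orange), with the range of the other 12 viewpoints in grey and the centromere as a dashed line. The peak at the viewpoint falls off on both sides, the cis arm on the left lies above the grey band for most windows near the centromere, and the replicates overlap throughout.

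Close to the viewpoint the 2 libraries gave unlike profiles. Between 1 and 10 kb, where each side had 3 fragments, the centromere side held 22555 RPM per fragment in A and 9817 in B, and the telomere side 2774 and 5327. The fragments next to those left out carried this difference: at 2.04 kb on the centromere side one fragment, which overlaps AT3G44370, held 29238 RPM in A and 12908 in B. From 10 to 30 kb the sides were close in each library, at 2634 and 3786 RPM towards the centromere (8 fragments) and 3048 and 4221 RPM towards the telomere (13 fragments). From 30 to 100 kb, the centromere side was at 988 and 835 RPM and the telomere side at 509 and 730 RPM. The log2 ratio of the centromere side to the telomere side between 1 and 100 kb was therefore 1.34 in A and 0.31 in B, 3rd of 13 viewpoints (others -0.94 to 1.55, exact permutation p = 0.385), with a replicate difference nearly as large as the distance to most other viewpoints.

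The genes within 200 kb of the viewpoint, 105 in all with 49 on the telomere side, included several families in tandem. Towards the centromere, the nitrilases NIT3, NIT1 and NIT2, enzymes that hydrolyse nitriles, lay at 41.3 to 51.5 kb. NIT3 fragments held 2993 RPM per fragment in A and 2008 in B, and the single fragment that NIT1 and NIT2 share held 2869 and 1727 RPM. Both values were above the mean of their interval in each library, but levels fell steeply within it. The centromere side was at 2634 RPM in A and 2033 in B near 35.5 kb and at 1143 and 928 RPM near 56.2 kb. NAC060, a NAC transcription factor gene at 61.9 kb, held 1748 and 1382 RPM, and NAC061 at 12.3 kb held 4373 and 3739 RPM. AT3G44330, which encodes the nicastrin-like peptidase at 27.1 kb, was at 3821 and 6163 RPM.

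Towards the telomere the 4 disease resistance genes of the TIR-NBS-LRR class, intracellular immune receptors, all lay on this side. AT3G44400 at 11.4 kb held 3578 RPM per fragment in A and 5410 in B, RPP1 (a receptor for downy mildew effectors) at 57.6 kb held 738 and 1462, AT3G44630 at 163 kb held 359 and 472, and AT3G44670 at 183 kb held 260 and 407. Each of the 4 was higher in B, but so was the telomere side as a whole. Its mean was 3048 RPM in A and 4221 in B at 10 to 30 kb, 509 and 730 at 30 to 100 kb, and 295 and 374 at 100 to 300 kb. Among the 3 histone deacetylase genes, hda17 at 62.2 kb held 660 and 542 RPM, hda10 at 180 kb held 54.8 and 109 RPM on 1 fragment, and HDA9 at 192 kb held 356 and 377 RPM. The fatty acid reductase genes FAR4, FAR5 and FAR8, whose enzymes make fatty alcohols, lay at 89.9 to 117 kb and held 268 to 866 RPM over both libraries, with FAR5 the highest of them at 701 and 866. HIRA, a histone chaperone gene at 82.7 kb, held 654 and 786 RPM. These levels mostly followed distance. Repeated sequence limited them on the telomere side, where fragments with fractional counts, that is with reads the authors had shared among several matches, held 40.6% of the reads within 200 kb in A and 39.8% in B, against 2.70% and 4.00% on the centromere side and 12.5% and 14.0% over all kept fragments. The part of this sharing in the values was not tested.

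Beyond 100 kb the sides separated gradually, with fewer reads towards the centromere. They were level from 100 to 300 kb (307 and 349 RPM per fragment towards the centromere, 295 and 374 towards the telomere). From 300 kb to 1 Mb the centromere side held 121 and 141 RPM and the telomere side 163 and 191. From 1 to 2.3 Mb, the largest distance that the centromere side allows, it was 55.6 and 62.1 RPM on 585 fragments against 88.7 and 104 RPM on 719 fragments. Each replicate was lower towards the centromere in both intervals. The telomere side then continued at 52.3 and 56.4 RPM from 2.3 to 5 Mb and at 36.9 and 38.3 RPM beyond 5 Mb, so that fragments on the telomere side at 2.3 to 5 Mb were about as high as those on the centromere side at 1 to 2.3 Mb. On a log10 scale of reads and distance, from 31.6 kb to 2 Mb, the slope was -0.88 in A and -0.78 in B towards the centromere and -0.54 and -0.60 towards the telomere.

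**Figure D2:**
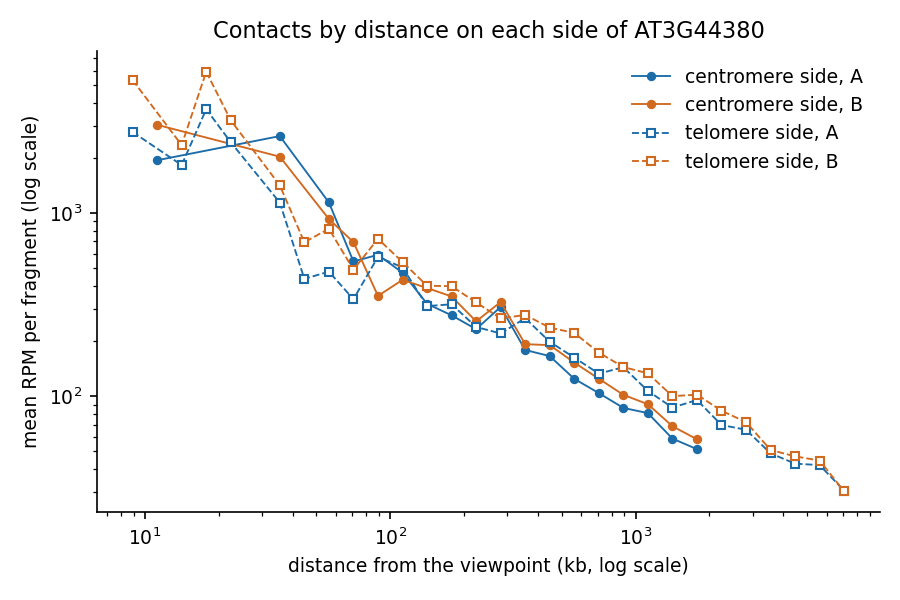
Mean RPM per fragment (log scale) against distance from the viewpoint in kb (log scale) in steps of 0.1 on the log10 scale with at least 3 fragments, for the centromere side (filled circles, solid lines) and the telomere side (open squares, dashed lines) in replicates A (blue) and B (orange). Beyond about 300 kb both telomere-side curves lie above both centromere-side curves, and the centromere side ends at the centromere.

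The log2 ratio of the centromere side to the telomere side was -0.27 and -0.33 at 100 kb to 1 Mb, 7th of 9 viewpoints with both sides at this distance (others -1.34 for YAO to 0.07 for hk4s, exact permutation p = 1). At 1 to 2.3 Mb it was -0.67 and -0.75, the lowest of the 7 viewpoints that could be compared, whose other values lay between -0.14 (FWA) and 0.14 (FLC). The exact two-sided permutation p was 0.143, the smallest that 1 against 6 can give. Both libraries of AT3G44380 lay below all 12 libraries of the others. Only 1 of the 6, AT1G51860, belonged to batch 2, and the centromere side of AT3G44380 at this distance reached closer to a centromere than theirs. The chromatin of the compared fragments differed too. A density is the percent of a fragment's bases covered by at least 1 uniquely aligned read of the published data. At 1 to 2.3 Mb the mean H3K9me2 density was 29.99 towards the centromere and 2.19 towards the telomere. Genes numbered 0.108 and 0.803 per fragment, and the genomic DNA reads, a measure of mappability, were 14.3 and 9.61 per fragment. Split by H3K9me2 density, the centromere side was lower in both classes. With a density under 5, the centromere side held 53.4 and 58.5 RPM (112 fragments) and the telomere side 90.1 and 106 RPM (657 fragments). With a density of 5 or more, the values were 56.1 and 63.0 RPM (473 fragments) against 74.1 and 83.1 RPM (62 fragments). This split by H3K9me2 was added after the difference between the sides had been seen. Its classes were not matched for distance within the interval, and the part of H3K9me2 in the difference was not tested.

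Across the centromere the level was lower, and along 3L it was lowest towards the end of the arm. Fragments of 3R at 100 to 500 kb from the centromere held 34.9 and 34.0 RPM, and those of 3L at the same distance on the other side held 14.1 and 12.3 RPM. Along 3L the level was 14.1 and 15.5 RPM at 500 kb to 1 Mb, 16.5 and 14.0 RPM at 1 to 2 Mb, 17.8 and 18.0 RPM at 2 to 4 Mb, 16.97 and 16.98 RPM at 4 to 8 Mb and 12.6 and 11.8 RPM beyond 8 Mb. The middle of the arm was thus at least as high as the part next to the centromere, in both libraries. Trans fragments ran in another order, from 2.80 and 1.93 RPM at 100 to 500 kb from their own centromere over 4.70 and 4.07 RPM at 1 to 2 Mb to 6.83 and 6.02 RPM at 4 to 8 Mb. Beyond 8 Mb the trans level was slightly lower again, at 6.62 and 5.57 RPM. The ratio of cis to trans therefore fell with distance from the centromere, from 5.05 and 6.38 times at 100 to 500 kb to 1.90 and 2.11 times beyond 8 Mb. As a log2 value at 100 kb to 1 Mb it was 2.15 and 2.64, 3rd of 13 viewpoints (others -0.92 for MEA F6 to 3.30 for hk4s). Beyond 4 Mb it was 1.10 and 1.28, 5th of 9 (others 0.288 to 1.496).

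**Figure D3:**
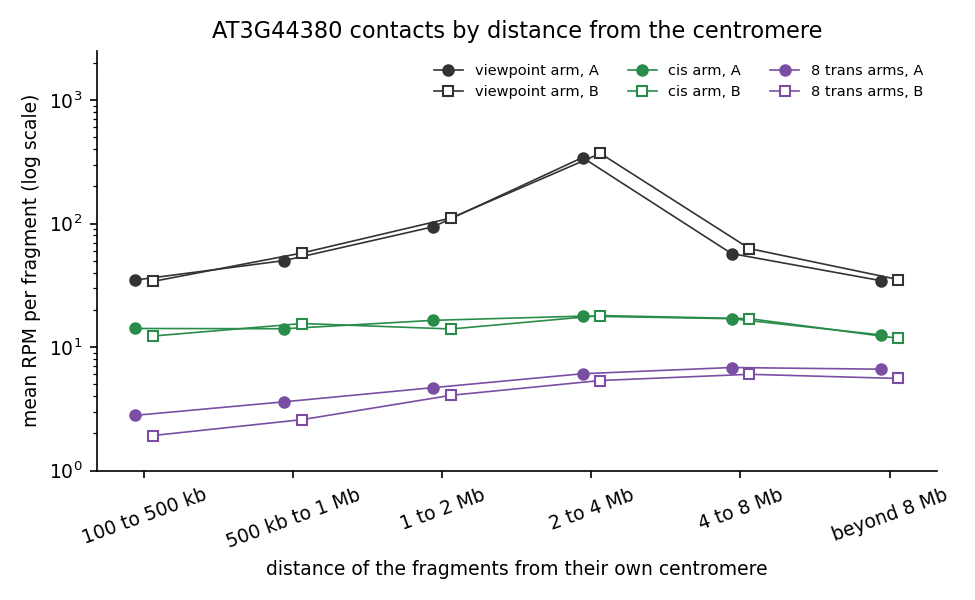
Mean RPM per fragment of AT3G44380 (log scale) by distance of the fragments from their own centromere, for the viewpoint arm (black), the cis arm 3L (green) and the 8 trans arms (purple), replicate A as filled circles and replicate B as open squares. The cis arm stays between 12 and 18 RPM. The trans arms climb from between 2 and 3 RPM next to the centromere to between 6 and 7 RPM at 4 to 8 Mb and are slightly lower beyond 8 Mb.

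All 73 windows of 100 fragments on 3L held 790 to 2233 RPM in A and 692 to 2218 RPM in B, and the median of their ratios to the median of the other viewpoints was 2.03. In 50 of the 73 the mean of AT3G44380 was above all 12 others, as it was in 48 of 50 windows of 3R, all of which are trans for the other viewpoints. The 3 highest windows of 3L were Chr3:10496514-10717629 (2113 RPM in A and 2163 in B, others 343 to 865), Chr3:10717624-10927196 (2233 and 2094, others 483 to 840) and Chr3:8437852-8625437 (2069 and 2126, others 515 to 785). The first was comparatively rich in H3K27me3, with a mean density of 21.9, and the last was gene-rich and transcribed, with a transcription density of 20.04 and an H3K27me3 density of 6.10, so that these windows differed in their marks. Across the 73 windows, Spearman's rho between A and B was 0.80, and rho with distance from the centromere was -0.60 and -0.61, as a description over windows that share 2 libraries. On the 522 trans windows rho between A and B was 0.72. The ends of chromosome 3 differed as their arms did: the last 1 Mb, on the viewpoint arm, held 29.3 and 29.5 RPM per fragment and the first 1 Mb, on 3L, 10.4 and 9.39 RPM. Over the trans mean of the library these were log2 2.27 and 2.51, and 0.78 and 0.86. The first 1 Mb lies in trans for the 12 other viewpoints, and 9 of them were lower there (exact permutation p = 0.615). The others ran from -0.30 (AT1G51860) to 1.27, so that some were higher although the region is in trans for them.

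The strongest single fragments outside the viewpoint arm were found almost exclusively on 3L. The mean level per fragment on 3L (7322 fragments) was 2.47 and 2.80 times that in trans (52655 fragments), which favours 3L in such a ranking. The 10 fragments with the highest lower value of A and B were taken, whose limit was 81.8 RPM for the 10th and 80.8 RPM for the 11th, and 9 of the 10 were on 3L. Since they were picked by these reads, their values are a description. The 2 HindIII ends of the highest one and of the one with the largest ratio to the highest of the other viewpoints are shown as the sites at which the reads began, with the HindIII site in capitals.
PMT5 fragment, chr3:6489698-6489727, plus strand: AAGCTTgctggaagaaatggattccgattg
PMT5 fragment, chr3:6495923-6495952, minus strand: AAGCTTtaaccctaacttatttgctttaca
CYP71B23 fragment, chr3:9591711-9591740, plus strand: AAGCTTttatgagttttaaatttaaactag
CYP71B23 fragment, chr3:9594695-9594724, minus strand: AAGCTTcagagaaacaatctcccgtgaatt
Each of these ends occurred once in the nuclear genome and not in the organelle genomes. The lower end of the PMT5 fragment and the higher end of the CYP71B23 fragment were coding, and the other ends lay between genes. The PMT5 fragment (Chr3:6489698-6495952), with the gene of a polyol and monosaccharide transporter, held 126 RPM in A and 110 in B, which were 46 and 123 reads, against 2.41 to 51.8 RPM in the other 12 viewpoints. The fragment of CYP71B23, a cytochrome P450 gene, held 98.9 and 84.4 RPM against 0 to 15.0 RPM. The TIC fragment (time for coffee, a regulator of the circadian clock) held 170 and 81.8 RPM against 7.64 to 28.9 RPM, with the libraries a factor of about 2 apart. A fragment with genes of the cysteine/histidine-rich C1 domain family (Chr3:10170682-10175354) held 126 and 102 RPM and had an H3K27me3 density of 58.2, the highest among the 10.

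Among the 10, 3 fragments had an end that occurred more than once. The only one off chromosome 3, Chr2:3482002-3484116 at 0.124 Mb from the centromere of chromosome 2, held 97.7 and 105 RPM, and both of its ends occurred once more in the mitochondrial genome. The other viewpoints held 13.7 to 78.2 RPM there. A fragment of 203 bp at Chr3:12672428-12672630, whose one end occurred 5 times in the nuclear genome, held 87.0 and 104 RPM against 20.6 to 91.2 RPM in the others. Chr3:8792761-8795534, with 1 end that occurred 2 times in the nuclear genome, held 84.8 and 98.9 RPM against 2.48 to 56.2 RPM.

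On the other chromosomes, the mean levels of AT3G44380 on the 8 arms were lowest on 4L, at 4.87 RPM in A and 4.06 in B. The highest were 4R, at 6.71 and 5.89 RPM, and 5L, at 6.74 and 5.73 RPM. The levels of AT3G44380 were below the mean of the other viewpoints on all 8 arms, but within their range on each (lowest exact permutation p = 0.250). They were below the mean of the others in batch 2 on 3 of 8. The median position of the reads along an arm, as relative distance from the centromere, averaged 0.536 and 0.533 over the trans arms against 0.490 for the fragments themselves. On 3L it was 0.452 and 0.443 against 0.510, that is, shifted towards the centromere where the trans reads were shifted away from it. Over all arms outside the viewpoint arm it was 0.526 and 0.523, 10th of 13 viewpoints (others 0.471 for AT1G51860 to 0.688 for CKI1, exact permutation p = 0.538).

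On average, neither chromosome ends nor pericentromeres of other chromosomes were contacted above the trans mean. Over the 8 trans chromosome ends of 1 Mb the mean log2 value relative to the trans mean was -0.06 in A and -0.18 in B, 12th of 13 viewpoints, in a range from -0.24 (AT1G51860) to 1.20 (CKI1). Over the 8 trans regions 100 kb to 1 Mb from a centromere it was -0.91 and -1.18, 11th of 13, between -1.10 (MEA F8, near the end of chromosome 1) and -0.05 (PHE). By region, the lowest was 1R, at 1.44 and 1.21 RPM, and the highest 2L, at 6.72 and 4.92 RPM. In the heterochromatic knob hk4s of chromosome 4, AT3G44380 was at -0.10 and 0.06 on the same scale (others -0.92 to 0.21, exact permutation p = 0.625). A viewpoint at 2.44 Mb from its own centromere thus had pericentromeric trans values at the low end of the series, whereas AT1G51860, at 4.17 Mb, was 3rd from the top with -0.29 and -0.42.

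**Figure D4:**
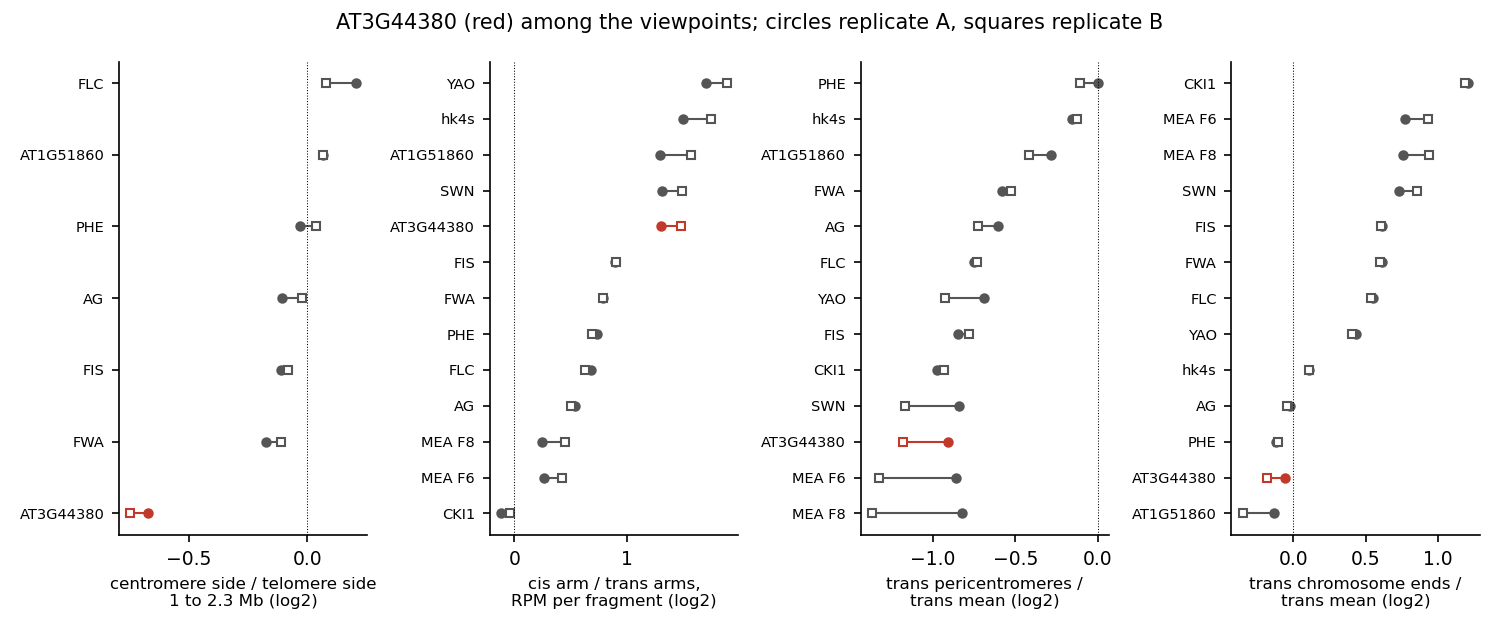
Log2 values of the 13 viewpoints, AT3G44380 in red, with filled circles for replicate A and open squares for replicate B, in 4 panels: centromere side over telomere side at 1 to 2.3 Mb (7 viewpoints), cis arm over trans arms, trans pericentromeres over the trans mean, and trans chromosome ends over the trans mean. AT3G44380 lies below the other 6 in the first panel, 5th from the top in the second, 11th in the third and 12th in the fourth.

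Window by window, the test called no trans region different between AT3G44380 and the other viewpoints. Reads of the 2 replicates were summed, and each of 520 trans windows was compared with the viewpoints for which it was also trans by edgeR's quasi-likelihood test. No window passed an adjusted p of 0.05 (0.00% of windows called), 11 had an unadjusted p under 0.05, and the lowest adjusted p was 0.736. With limma 0 passed (7 unadjusted) and with DESeq2 0 (44 unadjusted). With edgeR on single libraries, which takes its error from the replicates and not from the viewpoints, 87 windows passed, 85 of them lower in AT3G44380. The median log2 difference over all windows was -0.29 when scaled to all kept reads, and 0.09 when scaled to reads on other chromosomes, so that single differences are to be read against this shift. Of the 10 windows with the lowest p, 9 were lower in AT3G44380 and 7 of these lay within 1.06 Mb of a centromere. Among all 52655 trans fragments, 2914 lay at 100 to 500 kb and 2606 at 500 kb to 1 Mb from a centromere. The median window was itself lower, at -0.29. Since no window was called, these counts are a description, and a lower level near centromeres was not tested by them. At Chr2:4538006-4765155, AT3G44380 held 298 RPM in A and 188 in B and the other viewpoints 353 to 792 RPM (log2 difference -1.27, edgeR adjusted p = 0.736). At Chr1:14153450-14332646 it held 299 and 182 RPM against 287 to 500 RPM (-0.89, adjusted p = 0.736 in edgeR). The other 2 lower windows lay near the end of 1R. Chr1:30038992-30241700 held 510 and 319 RPM against 664 to 2696 RPM. The only higher one was Chr1:10481136-10677978, with 689 RPM in A and 683 in B against 385 to 551 RPM in the other 8 viewpoints (log2 difference 0.52, edgeR adjusted p = 0.736). Its libraries lay above all 8, and it lay 4.51 Mb from the centromere.

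Of the 3 highest windows on each of the 4 trans chromosomes, 12 in all, AT3G44380 was above every compared viewpoint in 3. Since these windows were picked by the AT3G44380 reads, which favours a high rank among viewpoints, their values and ranks are a description. On chromosome 2 the highest was Chr2:3292924-3503420, next to the centromere, with 1168 RPM in A and 740 in B, and 7 of 10 other viewpoints were lower. It includes the fragment with mitochondrial copies, which gave 8.36% and 14.2% of its reads, and it had a mean H3K9me2 density of 46.7. On chromosome 4 the highest was Chr4:11711478-11900456, with 891 and 946 RPM, above all 7 others (544 to 774 RPM). On chromosome 1, Chr1:7011313-7186792 held 816 and 991 RPM (571 to 852 in 8 others), and on chromosome 5, Chr5:8174227-8458751 held 964 and 805 RPM (480 to 953 in 11 others). Over all 522 trans windows, AT3G44380 was above all compared viewpoints in 37 and below all in 42.

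Contacts between viewpoints can also be read from the other end. Within 100 kb of AT3G44380, the other 12 viewpoints held 4.15 to 7.13 RPM per fragment in their A libraries and 2.68 to 8.70 in B. Relative to their own trans mean, the median was log2 -0.36 in A and -0.30 in B, and 2 of 12 (A) and 3 of 12 (B) were above 0. In the reverse direction, AT3G44380 within 100 kb of the other viewpoints was at -0.19 to 0.44 in A and -0.49 to 0.56 in B. The highest were SWN, a Polycomb gene on 4L, with 0.43 and 0.56, and FWA with 0.44 and 0.27. From their side, SWN was at -0.36 and -0.88 around AT3G44380 and FWA at -0.37 and -0.27, so that neither pair was high in both directions. AT1G51860 was above the trans mean in both directions, at 0.18 and 0.05 around AT3G44380 and at 0.24 and 0.35 in reverse. No other viewpoint was above the trans mean in both directions in both libraries. These reciprocal values were not tested.

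Weighted by read number, the trans fragments contacted by AT3G44380 had less H3K9me2 and H3K27me1 than trans fragments as a whole, but the direction turned when each fragment with reads was counted as 1 (0.468 above the plain mean for H3K9me2 and 0.657 for H3K27me1). Weighted by reads, H3K9me2 density was 4.47 in A and 3.98 in B against a plain mean of 5.94, and H3K27me1 was 7.29 and 6.87 against 8.88. H3K18Ac was 44.9 and 45.3 against 42.3, H3K36me3 34.6 and 35.1 against 32.4, transcription 18.1 and 18.4 against 16.4, and H3K27me3 12.3 and 12.5 against 10.8. H3K4me3 was close to the mean, at 19.8 and 19.6 against 19.3. Each sign was the same in both libraries. Of the 12 densities, 9 were above the plain mean, and every one lay within the range of the other viewpoints, with H3K18Ac 2nd of 13 (difference 2.73 ± 0.268, SD, n = 2, others -0.51 to 2.74, exact permutation p = 0.308) and H3K9me2 11th (-1.71 ± 0.349, others -2.86 to 0.78, exact permutation p = 0.538). Genes numbered 0.803 and 0.787 per fragment weighted by reads against 0.689, and transposable element genes 0.0801 and 0.0754 against 0.0925. The excess of genes was shared by all 12 other viewpoints (0.053 to 0.184), and AT3G44380 was 10th of 13 at 0.106.

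Several of these differences were smaller away from the centromeres. On the 42950 trans fragments at 2 Mb or more from a centromere, the weighted mean minus the plain mean was 0.06 and -0.04 for H3K9me2, 0.05 and 0.01 for H3K27me1 and -0.09 and 0.13 for H3K36me3. Several tracks were above the plain mean there in both libraries, H3 by 0.99 and 1.45, H3K27me3 by 0.97 and 1.07, H3K18Ac by 0.75 and 0.95, input by 0.62 and 0.67, H3K36me2 by 0.55 and 1.31 and transcription by 0.42 and 0.63. H3K4me3, above the mean over all trans fragments, was below it here (-0.71 and -1.07). H3K18Ac was there the highest of the 13 viewpoints, at 0.85 ± 0.137 (SD, n = 2) against -2.74 (AG) to 0.78 (SWN), with an exact permutation p of 0.154, and H3K27me3 was 4th, well under AG at 5.93. Spearman's rho of trans reads with H3K9me2 was -0.40 and -0.37 over all 522 windows and -0.08 and -0.04 over the 425 at 2 Mb or more from a centromere. For H3K27me3 it went from 0.34 and 0.37 to 0.03 and 0.08, and for H3K4me3 from 0.45 and 0.36 to 0.11 and -0.04.

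On chromosome 3 the contacted fragments had another composition. On 3L, H3K4me3 was 1.57 and 1.63 points under the plain mean of 20.4, H3K36me3 was 1.54 and 1.22 points under that of 35.0, H3K27me3 was 0.64 and 1.15 points over that of 10.9, and H3K9me2 differed by 0.37 in A and -0.06 in B from 4.47. On the telomere side of the viewpoint arm beyond 300 kb, H3K27me3 was 14.6 and 15.1 against 12.4, H3K4me3 19.6 and 20.4 against 23.3, and H3K36me3 34.5 and 36.1 against 39.0. On the centromere side beyond 300 kb, H3K27me3 was 7.52 and 7.53 against 5.43, H3K9me2 24.9 and 24.5 against 27.2, and genes 0.249 and 0.247 against 0.175 per fragment. H3K27me3 was above the plain mean in each of these sets and in trans. In trans this was shared by all 12 other viewpoints, at 0.39 to 6.32 points above the plain mean against 1.56 in AT3G44380. Density and distance from the viewpoint change together on the viewpoint arm, and the 2 cannot be told apart in these means.

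**Figure D5:**
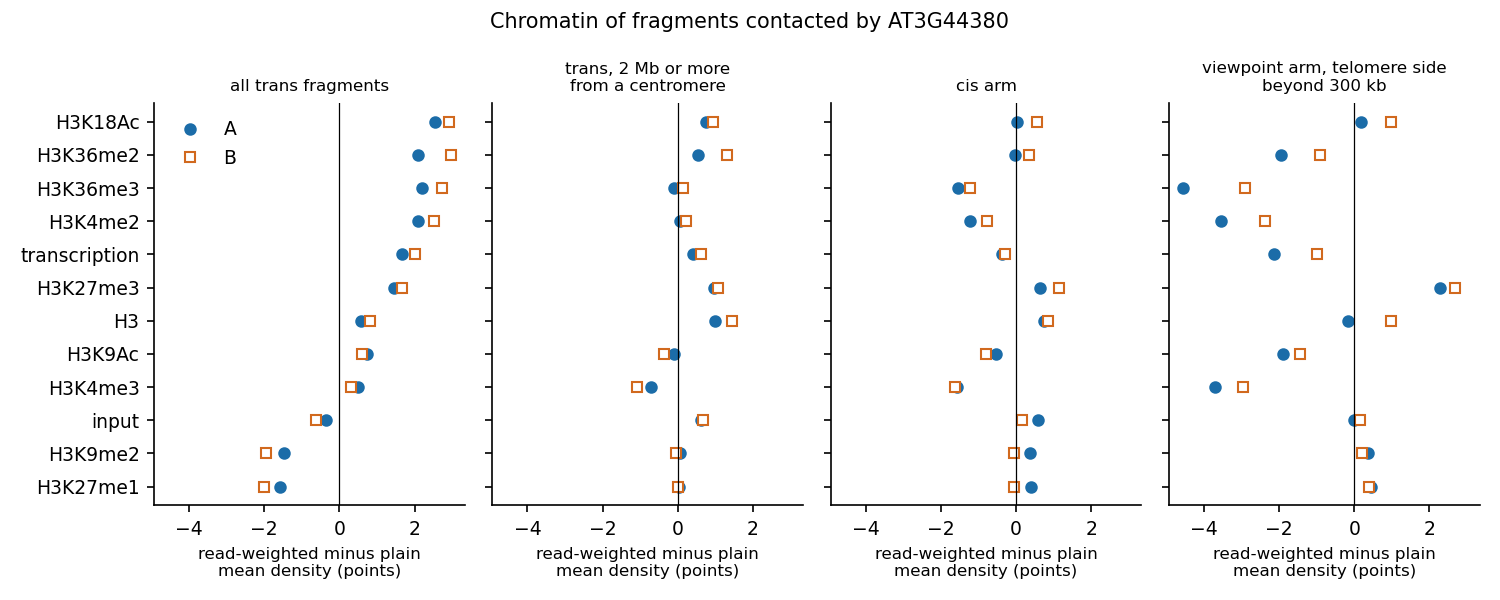
Read-weighted minus plain mean density, in percentage points, of 12 tracks for fragments contacted by AT3G44380, with filled circles for replicate A and open squares for replicate B, in 4 panels: all trans fragments, trans fragments 2 Mb or more from a centromere, the cis arm, and the telomere side of the viewpoint arm beyond 300 kb. H3K9me2 and H3K27me1 lie left of 0 in the first panel and at 0 in the second, and H3K27me3 lies right of 0 in all 4.

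Since TIR-NBS-LRR genes lie beside the viewpoint, fragments with disease resistance genes were followed elsewhere. The annotation named 158 genes whose product is called a disease resistance, NBS-LRR or NB-ARC protein, not only of the TIR class, and 17 of them were on chromosome 3. In trans, the 581 fragments that hold one had 7.30 RPM in A and 5.91 in B, against 6.08 and 5.18 RPM for all trans fragments. Fragments with other genes had 6.72 and 5.78 RPM, those with transposable element genes 5.39 and 4.30 RPM, and those with no gene, which were shorter (829 bp against 1807 bp on average), 3.55 and 3.02 RPM. The log2 value of the disease resistance fragments over all trans fragments, 0.26 and 0.19, was above that of 10 of the 12 other viewpoints and inside their range (-0.45 to 0.43). At 2 Mb or more from a centromere, disease resistance fragments had 7.34 and 5.96 RPM, transposable element genes 7.29 and 5.92 RPM and other genes 6.78 and 5.84 RPM, so that the gap between transposable element genes and other genes seen over all trans fragments was absent there. On 3L the 35 disease resistance fragments had 11.1 and 12.7 RPM, below the 15.0 and 14.5 RPM of the arm.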

How the data were processed

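The deposited expected counts were made by the authors. Reads were sorted by viewpoint primer and HindIII site, trimmed, and aligned to TAIR10 with Bowtie 0.12.7, and reads with several matches were divided among fragments by weight, so that counts can be fractional (a count was called whole within 0.001). The deposited signal values are densities that the authors computed from published data as percent coverage of each fragment, and the deposited scores are numbers of annotated features per fragment. Genomic DNA reads were deposited likewise. The deposited distances to second sites matched NlaIII throughout (1340 of 1340 sampled fragments), also for DpnII libraries. All 66846 fragments equalled HindIII fragments of the reference (RefSeq TAIR10.1), which supplied gene names and sequences.

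HindIII-end counts were scaled to kept reads. Viewpoints, not libraries, were the unit of tests: a mean of replicates A and B, which the study calls biological replicates, was set against the other viewpoints by two-sided exact permutation, with Benjamini-Hochberg adjustment over 35 measures. Trans windows of 100 fragments with a mean of at least 10 reads were tested on rounded sums with edgeR 4.0.16 (quasi-likelihood), and with limma 3.58.1 (pseudocount of 1 RPM) and DESeq2 1.42.0 as alternatives, run under R 4.3.3. Tables and figures were made with pandas 2.3.3, matplotlib 3.10.9, SciPy 1.17.1 and NumPy 2.4.6 under Python 3.11.15. The procedures were tested on simulated data. Named were the windows highest in the lower of the 2 replicates, the 10 windows of lowest p, the 10 highest fragments, and, near the viewpoint, gene families with several members. NAC060, NAC061, AT3G44330 and HIRA were named after their values were seen. The viewpoint, lists and measures were chosen with earlier results of these data known.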

Additional observations from a re-analysis of the deposited data

How the results depend on the processing

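Of 437 values recomputed under other settings, 342 were counted as kept, 59 moved, 25 reversed and 11 values of single windows came to pass the threshold. For side ratios, arm shares, the cis to trans ratio over whole arms and the median read position, kept means the same sign only. For single windows it means the same sign without passing the threshold. Other values had to stay within the replicate SD, and counts within a fixed factor. Counting each fragment with reads as 1 removes read numbers, and it changed most: the viewpoint-arm share came to 3.26 percentage points below the other viewpoints (value -3.26), the trans share to 0.714 points above, the cis to trans log2 ratio to 0.66 at 100 kb to 1 Mb and 0.36 beyond 4 Mb, and the level of other viewpoints around AT3G44380 to 0.0186. The trans arms below the mean of the others were then 3, and 7 features were above the plain mean in place of 4. Weighted minus plain means became 0.657 (H3K27me1), -0.0593 (H3K36me3), -0.0012 (H3K4me2), -0.491 (H3K4me3), -0.146 (H3K9Ac), 0.468 (H3K9me2), 1.16 (input), 0.00947 (transposable element genes) and 0.0182 (transposable elements). With fragments 2 Mb or more from a centromere they were 0.0297 (H3K27me1), -0.889 (H3K4me3), -0.232 (H3K9Ac), 0.00839 (H3K9me2), 0.644 (input), 0.00178 (transposable element genes) and 0.0279 (transposable elements), and H3K4me3 was -0.107 without the 500 kb around centromeres. Transposable elements were 0.0152 with ends of both enzymes and -0.0311 without replicate A or 0.00425 without replicate B.

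Against batch 2 alone, the difference in the cis share was -2.35 points, that in cis over trans -0.17 (log2), and 3 trans arms were lower. Against viewpoints of the same enzyme the cis share differed by -0.900. Without replicate A or B, values of -0.0302 and 0.069 resulted for the difference of the side ratio at 100 kb to 1 Mb from the mean of the others, and -0.74 and -0.65 at 1 to 2.3 Mb. The sign of the difference from the other viewpoints changed under at least 1 setting for 10 of 12 densities, 4 of 7 features and 6 of 8 trans arms.

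No trans window passed in 13 of 15 alternatives. When edgeR was fitted on libraries, with the spread between replicates in place of that between viewpoints, 87 of 520 windows passed without a replicate block (2 higher) and 96 with the letter as a replicate block (3 higher, 93 lower). Letters share lanes, and the difference between A and B of AT3G44380 correlated with that of the 12 others at -0.02 to 0.18 (mean 0.09), so that letters were not taken as pairs. Against batch 2, chromosome 4 could not be fitted, because 1 viewpoint faced 1. With 2 replicates and 2.21 reads per trans fragment in A, single trans fragments and changes below the replicate spread were not resolved.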
